A study of Mus musculus with 12 samples.

Results

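The mouse mammary gland in established lactation is a secretory organ whose alveolar epithelium exports casein micelles, whey proteins, lactose and fat globules wrapped in cell membrane. The hormone prolactin, acting through the transcription factor Stat5, and glucocorticoids keep the milk protein genes on, and myoepithelial cells around the alveoli contract to eject the milk. The expression landscape described here is that of the wild-type (WT) glands alone: 5 of the 12 libraries of the series, read across all 11834 genes of the deposited table, with no library left out and no comparison with the 7 knockout (KO) libraries, which lack Btn1a1. The members were chosen by genotype label, not by any measured value.

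Each WT library came from the lactating mammary gland of 1 wild-type C57BL/6 mouse in lactation 1. Replicates 1, 4 and 5 were taken on day 10, replicate 2 on day 9 and replicate 3 on day 11. PolyA RNA was sequenced as read pairs. The mice had been fed either of 2 chows, and which mouse had which is not given, so day, chow and mouse cannot be told apart. The whole gland was homogenised, so every value is a mixture of secretory epithelium with all other cells of the tissue. The replicates are called glands 1 to 5 below, and ± is the standard deviation (SD) over the 5 glands.

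The authors deposited log2 CPM, in which each library's reads are expressed relative to its total. They had been quantile-normalized, which gives each library the same set of values in another order of genes. The linear values of each WT library summed to between 988806 and 988808 CPM, and 76.1% of ranks held values within 0.01 log2 of each other in all 5 glands. Depth, estimated from the spacing of low values, ran from 17.1 M reads in gland 4 to 30.4 M in gland 1 (26.1 ± 5.33 M). The median was 2.62 log2 CPM in the 10% of genes with the shortest transcripts and 3.44 in the 10% with the longest. The part of length in this difference was not tested. CPM follows reads, not molecules, and long transcripts give more reads per molecule. Levels of different genes are therefore compared below per kilobase of the longest annotated transcript, rescaled to the total of CPM (the per-length scale), and shares of CPM are shares of reads.

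Milk protein mRNAs took most of the reads. Csn2, the beta-casein gene, was highest with 158418 CPM. Csn1s1, the alpha-s1 casein, held 14.8% of CPM, Csn1s2a 13.2%, Csn1s2b 6.20% and the kappa-casein gene Csn3 4.93%. Wap, the whey acidic protein, held 9.62%. The iron carrier transferrin, Trf, held 3.80% and the mucin-like Glycam1 held 2.11%. These 8 genes held 70.7% of CPM together, and the 10 highest held 72.0% ± 0.117. The other end of the scale was long: 4 genes held 50% of CPM, 74 held 80%, 1210 held 90% and 7472 held 99%.

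**Figure D1:**
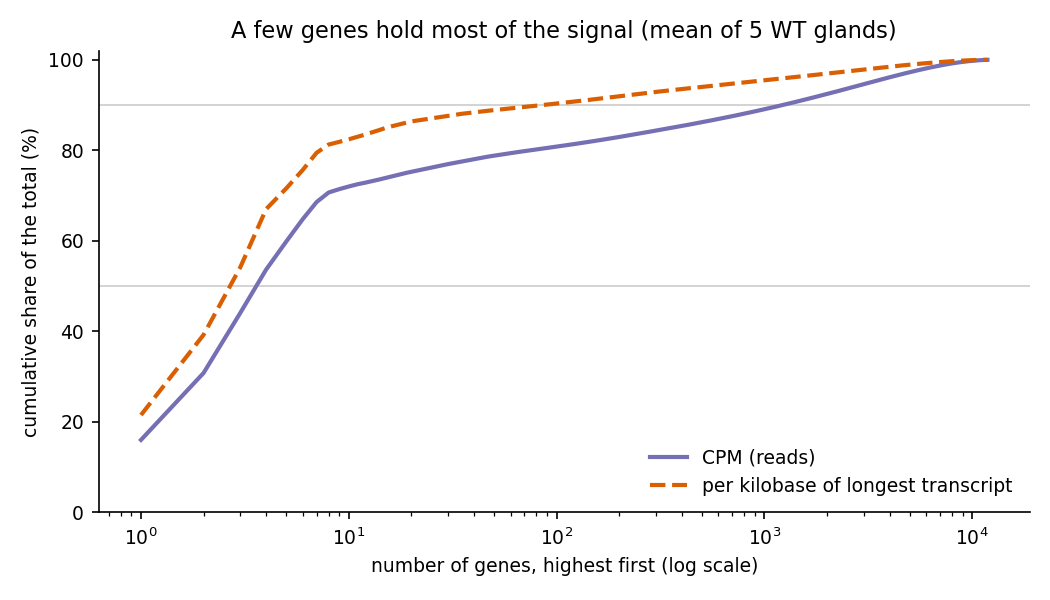
Cumulative share of the total (%) against the number of genes taken from the highest down (log scale), as the mean of the 5 WT glands, for CPM (solid) and for the per-length scale (dashed). The curves bend at the 8th gene, where CPM reaches 70.7%.

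Per unit of length the order of the milk proteins was different. Wap led with 215160 on that scale, followed by Csn1s2a with 177192, Csn2 with 148600 and Csn1s1 with 129141. Csn1s2b (45832), Glycam1 (40593), Csn3 (38110) and Trf (18198) came next. These orders hold for the longest annotated transcript of each gene and not for its summed exons, and glands could not differ in them, since each of the 8 genes has 1 and the same CPM value in all 5 glands. That single value is a property of the quantile normalization: where the same gene holds the same rank in all libraries, it is given the same number. Variation of the 8 most abundant mRNAs between glands therefore cannot be read from the table.

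Directly below them, values move in the steps that the ranks allow. The 22 genes of rank 9 to 30 held only 25 distinct log2 values over the 5 glands. Scd1, the stearoyl-CoA desaturase that makes monounsaturated fatty acids, had 12.53, 12.53, 12.91, 12.53 and 11.71 log2 CPM in glands 1 to 5. The mitochondrial gene mt-Co1 had 12.91, 12.91, 12.53, 12.91 and 12.91. In gland 3 the pair had changed places, and a gap of 0.37 log2 between neighbouring ranks became the whole difference between that gland and the others for mt-Co1. An SD among the highest genes is thus a count of exchanged ranks as much as a measured spread.

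The caseins lie together on chromosome 5. Between the start of Csn1s1 and the end of Csn3 (chr5:87666208-87932665, mm10, 266 kb) the annotation has 7 protein-coding genes, and 6 of them were in the table. The 5 caseins of this stretch held 545462 of CPM, which with the neighbouring Odam made 55.2% of all CPM. Odam, a gene of the enamel organ that lies between Csn1s2b and Csn3, had a mean of only 1.35 ± 0.468 CPM. Chromosome 5 held 56.6% of CPM with 6.28% of the genes, chromosome 11, with Wap, 12.3%, and chromosome 9, with Trf, 5.42%.

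Stat5 binds the palindrome TTCNNNGAA, which is its own reverse complement and so reads the same on both strands. In windows from 250 bases before to 50 bases after the RefSeq start (GRCm38.p6), 5 of the 8 highest genes had an entry, and 4 of these (Csn2, Csn1s1, Csn1s2a and Glycam1) held the palindrome. It was in 8.30% of all 32851 promoter windows and in 8.34% of the 8874 table genes with a window. Wap had a window without it, and Csn1s2b, Csn3 and Trf had no entry. In Csn2 the match began 93 bases before the start, in Csn1s1 100 bases and in Glycam1 145 bases before it. The match in Csn1s2a began 20 bases after the RefSeq start and is not printed. That start, just after chr5:87774449, lies upstream of the GENCODE start of the gene (chr5:87774567). The match lies between these starts. The 250 bases before the start are shown for the other 3 genes, 5′ to 3′ on the gene's strand, with the palindrome in capitals, because Csn2 and Csn1s1 are the 2 highest genes by reads and Glycam1 holds the palindrome outside the casein locus. A match is a string of letters and not evidence of binding.
Csn2, chr5:87699426-87699675, reverse strand: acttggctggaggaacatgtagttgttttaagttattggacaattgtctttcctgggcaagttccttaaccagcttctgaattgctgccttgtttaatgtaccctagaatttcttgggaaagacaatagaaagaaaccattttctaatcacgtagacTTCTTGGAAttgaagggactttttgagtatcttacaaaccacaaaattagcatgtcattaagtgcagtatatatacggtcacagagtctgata
Csn1s1, chr5:87665958-87666207, forward strand: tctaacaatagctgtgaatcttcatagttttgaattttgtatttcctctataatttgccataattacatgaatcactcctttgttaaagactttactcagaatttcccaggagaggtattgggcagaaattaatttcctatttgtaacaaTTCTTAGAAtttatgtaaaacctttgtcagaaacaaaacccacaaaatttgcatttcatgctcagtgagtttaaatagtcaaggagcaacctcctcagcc
Glycam1, chr15:103565082-103565331, reverse strand: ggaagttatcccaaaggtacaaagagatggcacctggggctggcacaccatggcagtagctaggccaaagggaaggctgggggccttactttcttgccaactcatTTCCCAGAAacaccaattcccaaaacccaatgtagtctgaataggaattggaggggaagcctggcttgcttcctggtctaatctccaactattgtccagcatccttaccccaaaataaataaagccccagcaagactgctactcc

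The central letters differ: TTCTTGGAA in Csn2, TTCTTAGAA in both Csn1s1 and Csn1s2a, and TTCCCAGAA in Glycam1. The motif, like those searched further on, was picked with the expression values known.

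Outside the 8 highest genes, reads went first to fat and to mitochondria. Which of them led depends on copies of mitochondrial genes on chromosome 1, described below. With these copies the mitochondrial share was 2.96% of CPM. Genes of fatty acid and triglyceride synthesis (33 genes) held 2.03% ± 0.307 of CPM, those encoded by mitochondrial DNA (15 genes) 1.89% ± 0.188, and those of the milk fat globule membrane and fat secretion (14 genes) 1.67%. Cytosolic ribosomal proteins (85 genes) held 1.04% ± 0.0622, genes of entry into and folding in the endoplasmic reticulum (ER; 94 genes) 0.600% ± 0.0657, and translation factors (56 genes) 0.580%. The nuclear subunits of the respiratory chain (81 genes) held 0.332%. In all, 1225 of the 11834 genes (10.4%) fell in one of the 39 classes, and the 10609 unlisted genes held 18.4%. In each gland 37 genes reached 1000 CPM, 354 reached 100 CPM and 11135 ± 12.5 reached 1 CPM. The equal counts at 1000 and 100 CPM follow from the quantile normalization.

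**Figure D2:**
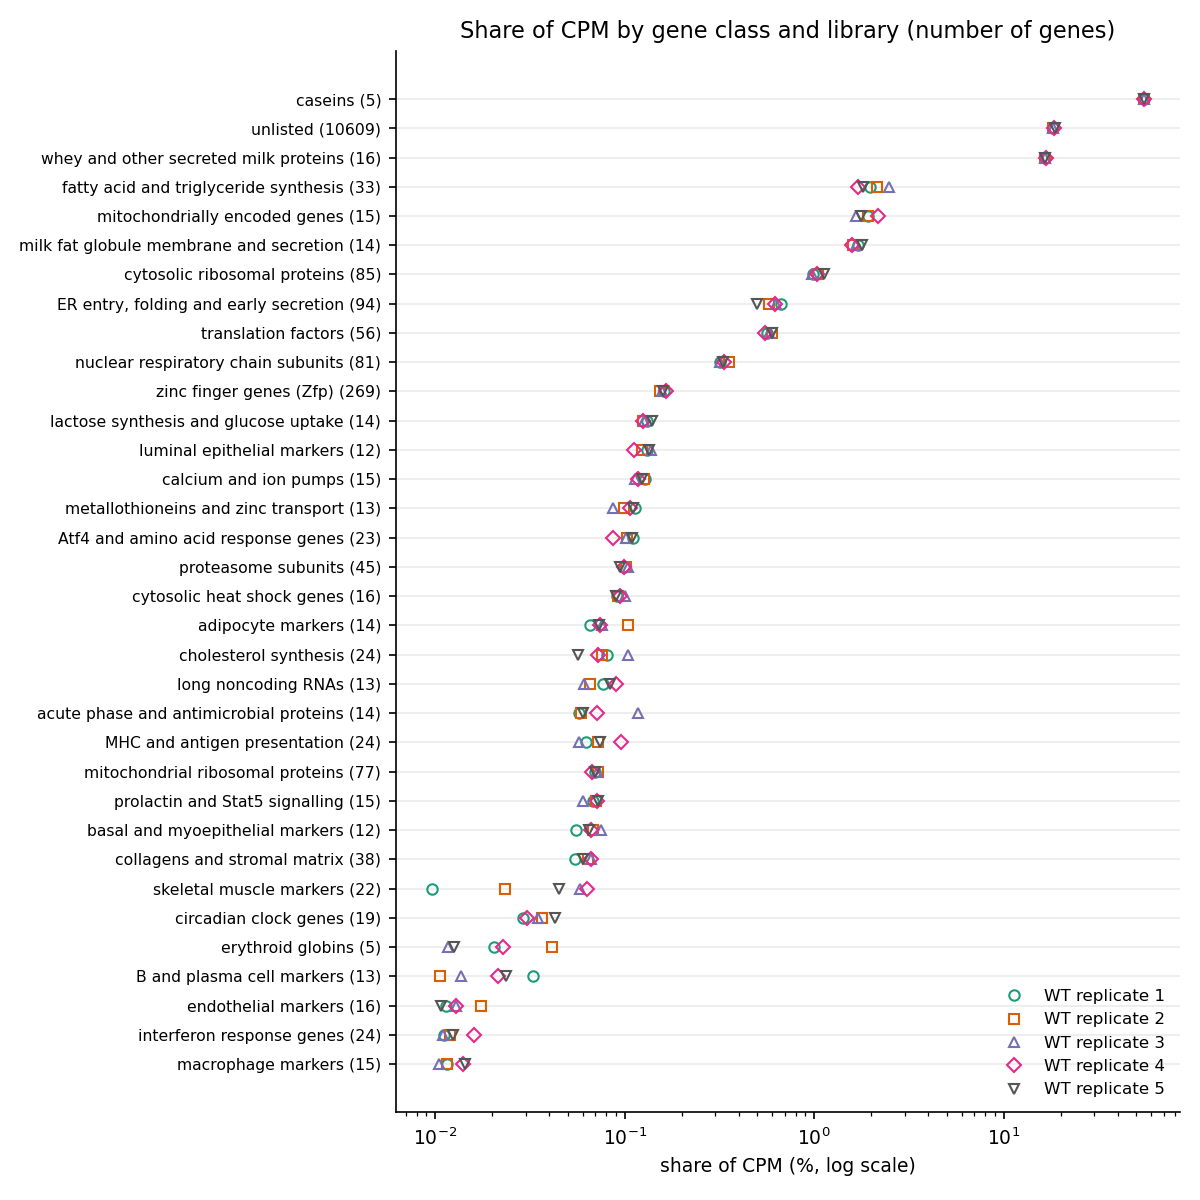
Share of CPM (%, log scale) by gene class, with the number of genes in brackets, and 1 symbol per WT gland; classes with a mean share of at least 0.01% are drawn. Caseins sit at 55.2% in all 5 glands, while skeletal muscle markers run from 0.00958% in gland 1 to 0.0635% in gland 4.

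Among the other secreted milk proteins, Lalba, the alpha-lactalbumin that turns a galactosyltransferase into lactose synthase, had 11.97, 11.56, 11.56, 11.97 and 11.36 log2 CPM, and Wfdc18 had 10.86, 10.59, 10.94, 10.94 and 11.11. On the per-length scale they stood close together, with 5395 for Lalba and 4570 for Wfdc18. Spp1, the gene of the milk protein osteopontin, was the most variable secreted milk protein. It had 6.70, 8.35, 8.93, 6.70 and 6.95 log2 CPM, so glands 2 (day 9) and 3 (day 11) lay above the 3 day 10 glands. The share of all genes with this pair highest was not counted, and a part of day was not tested. Pip, the prolactin-induced protein, had 5.32, 3.87, 4.25, 4.20 and 5.23 and was highest in glands 1 and 5. B4galt1, the galactosyltransferase partner of alpha-lactalbumin, was steady, with 9.86 ± 0.11 log2 CPM (SD).

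Genes that wrap and secrete the fat globule were among the 30 highest by reads. Fabp3, a fatty acid carrier of the cytosol, had 11.71 ± 0.32 log2 CPM, and Btn1a1, the globule membrane protein deleted in the other group of the series, had 11.03 log2 CPM in glands 1, 2, 4 and 5 and 11.23 in gland 3. Mfge8 had 10.97 ± 0.20 and Xdh, the xanthine oxidoreductase that binds butyrophilin at the membrane, 10.80 ± 0.11. The per-length levels were 5168 for Fabp3, 1184 for Mfge8, 783 for Btn1a1 and 485 for Xdh. Rab18, a small GTPase of lipid droplets, had 9.07, 8.06, 9.07, 9.04 and 9.04 log2 CPM, so gland 2 held about 1 log2 less than the other 4, which lay within 0.04 of each other.

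Genes of fat synthesis had a median SD of 0.304 log2 between glands, and those of the globule membrane and fat secretion 0.185; the difference was not tested. Fasn, the fatty acid synthase, had 11.71, 11.97, 12.21, 10.86 and 11.79 log2 CPM, with gland 4 lowest. Srebf1, the transcription factor that drives lipogenic genes, had 6.88, 7.58, 7.60, 6.46 and 7.86 and was lowest in the same gland. Scd2 had 8.61, 8.13, 9.26, 8.27 and 7.61 and was lowest in gland 5. Of the 33 genes of the list, 14 were lowest in gland 4, 13 highest in gland 3 and 11 highest in gland 2. Over all genes with more than 1 value, 23.4% were lowest in gland 4, 18.4% highest in gland 3 and 18.9% highest in gland 2. The mean log2 CPM of the members, minus the mean over glands, was highest in gland 2 (0.17, against 0.13 in gland 3). Lpl, the lipase that takes up circulating fat, lay at the other end with 10.37 ± 0.06.

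Cholesterol synthesis had a clearer order. Of its 24 genes, 20 were highest in gland 3 and 18 lowest in gland 5, against 18.4% and 21.7% of all genes. Insig1, which holds back the sterol sensor and is itself induced by it, had 7.96, 7.64, 8.47, 7.53 and 7.17 log2 CPM. Sqle, the squalene epoxidase, had 6.42, 6.10, 6.63, 6.23 and 5.59. Dhcr7, the last step to cholesterol, had 3.24, 3.17, 3.89, 2.96 and 2.48. In each of these 3 genes gland 3 was highest and gland 5 lowest. The list score, which is the mean log2 CPM of the members minus the mean over glands, ran from -0.39 in gland 5 to 0.35 in gland 3. Hsd17b7 went against the list, with 5.61, 5.38, 5.19, 5.72 and 5.35, and was lowest in gland 3.

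Mitochondrial transcripts carry a caution of annotation. A block of 7 unprocessed pseudogenes on chromosome 1 (chr1:24611535-24616197, mm10, reverse strand) copies part of the mitochondrial genome, and 3 of them were among the 30 highest genes. Gm28437 (3514 ± 293 CPM) was identical to mt-Co3 over its whole length of 783 bases, Gm10925 (2722 ± 279 CPM) to mt-Atp6 over 678 bases and Gm28661 (2642 ± 327 CPM) to mt-Co2 over 681 bases. The mitochondrial originals had less: 416 CPM for mt-Co3, 408 for mt-Atp6 and 613 for mt-Co2, so that the copies stood 8.44, 6.68 and 4.31 times above them. Reads of identical sequence cannot be assigned to either place, and the split between copy and original was set by the counting, not measured. The 15 mitochondrial genes held 1.89% of CPM, the 7 copies 1.07% ± 0.0562 and both together 2.96% ± 0.227. Gland 4 was highest (3.33%) and gland 3 lowest (2.71%) for the sum. mt-Nd3 looked variable alone (4.08, 1.87, 3.99, 3.15 and 3.53 log2 CPM, SD 0.90), while its sum with the copy Gm28438, 99.7% identical to it, had an SD of 0.21.

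Large classes of housekeeping function varied little. The median SD was 0.114 log2 over the 81 nuclear subunits of the respiratory chain, 0.118 over the 85 cytosolic ribosomal proteins and 0.124 over the 56 translation factors, against 0.19 over all genes. Genes of like level varied nearly as little. The SD minus the median SD of genes of like level had a median of -0.021, -0.018 and -0.017, in that order. Of the ribosomal proteins, 45 were highest in gland 5 and 38 lowest in gland 1, against 21.5% and 16.8% of all genes. Rpl4 had 8.43, 8.63, 8.43, 8.57 and 8.78 log2 CPM, and Rplp0 had 8.38, 8.61, 8.32, 8.47 and 8.61. Proteasome subunits had a median SD of 0.12, and a median of -0.020 against genes of like level. The exceptions there were Psmb8 (1.54, 2.14, 1.83, 2.83 and 2.28) and Psmb9 (0.82, 1.13, 0.50, 2.06 and 1.43), the interferon-induced subunits of the immunoproteasome, both highest in gland 4.

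Over all genes, the SD between WT glands had a median of 0.19 log2, which is a factor of 1.14, with the 10th percentile at 0.0871 and the 90th at 0.433. It depended on level: in 10 equal groups of genes ordered by mean, the median SD was 0.387 in the lowest group and 0.128 in group 9. An SD of at least 1 log2 was found for 136 of 11834 genes (1.15%), and for 60 (0.613%) of the 9780 genes whose mean was 1 log2 CPM or more. An SD of at least 0.5 was found for 804 genes (6.79%) and, above that mean, for 333 (3.4%), while 1730 genes (14.6%) lay under 0.1. Gland 4, the shallowest library by the estimate, was the highest gland for 233 of the 804 genes (29%), against 21.6% of all genes. Gland 1 was the highest for 110 (13.7%), against 19.6% of all genes. Glands 4 and 1 were each the lowest for 176 of the 804 (21.9%), against 23.4% and 16.8% of all genes. The part of depth in this was not tested. Between any 2 glands the median absolute difference ran from 0.15 log2 (glands 1 and 3) to 0.19 (glands 1 and 5). A difference of 2-fold or more, among the same 9780 genes, was found for 127 genes between glands 1 and 2 and for 222 between glands 2 and 4.

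**Figure D3:**
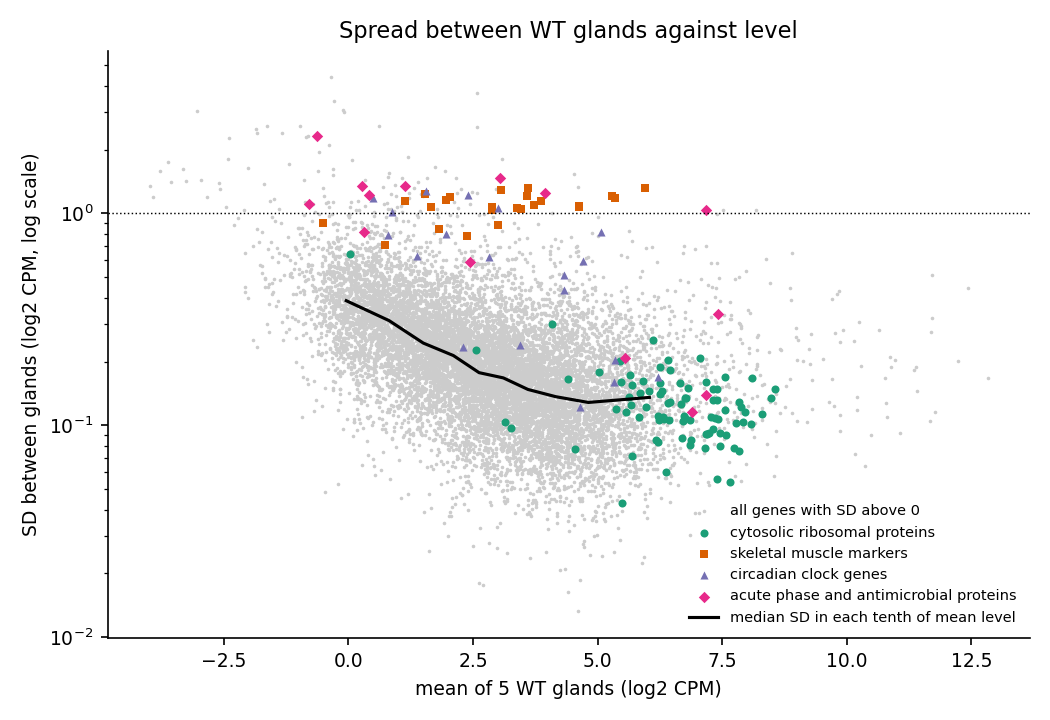
SD between the 5 WT glands (log2 CPM, log scale) against the mean of the glands (log2 CPM), with 1 point per gene, 4 lists in colour, the median SD in 10 groups of like level as a line and an SD of 1 dotted. Skeletal muscle markers lie near or above the dotted line at all levels, and most ribosomal proteins lie near or under the line of medians.

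The steadiest genes with an ordinary symbol and 5 distinct values were Eaf1, a partner of the transcription elongation factor ELL (4.61 log2 CPM, SD 0.0133), and Becn1, the autophagy gene beclin 1 (4.41, SD 0.0164). Rbm45, Gtpbp8, Dnajc14, Ttc13, Vps41, Tcp1, Mllt10 and Laptm4a followed with SDs from 0.0176 to 0.0238. Tcp1, a subunit of the cytosolic chaperonin, had 5.88, 5.87, 5.92, 5.88 and 5.87 log2 CPM. These genes were chosen for their small SD, so the SD itself is only a description.

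The most variable list was skeletal muscle. Of its 24 measured genes, 19 (79.2%) had an SD of at least 1, against 1.15% of all genes, and the median SD was 1.09 log2. Myh4, a fast myosin heavy chain, had 3.77, 5.71, 6.93, 6.94 and 6.39 log2 CPM. Acta1, the skeletal actin, had 3.53, 4.81, 6.27, 6.28 and 5.84. Pvalb, the calcium buffer of fast fibres, had 1.71, 2.74, 4.39, 4.75 and 4.46. Gland 1 was the lowest for 19 of the 24 and gland 4 the highest for 19, against 16.8% and 21.6% of all genes. The summed level was 96.4, 237, 579, 631 and 450 CPM in glands 1 to 5, a 6.54-fold range. Myh7, the slow myosin, was not analysed here. In bulk tissue, fewer cells of a type and less RNA per cell cannot be told apart. Cox8b, a respiratory subunit that adipose tissue also expresses, went another way with 0.40, 1.99, 0.26, 0.54 and 0.50 and was highest in gland 2.

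Gland 2 had the most adipocyte, endothelial and red cell RNA. All 14 measured adipocyte genes lay above the median SD of genes of like level, and 12 were highest in gland 2, as were 14 of 16 endothelial genes and 5 of 5 globin and heme genes, against 18.9% of all genes. Plin1, a coat protein of the adipocyte lipid droplet, had 3.57, 4.54, 2.96, 3.59 and 3.29 log2 CPM. Adipoq, the adipokine adiponectin, had 5.41, 6.18, 5.44, 5.62 and 5.60. Cdh5, the cadherin of endothelial junctions, had 3.78, 4.54, 3.92, 3.80 and 3.57. Hbb-bs, a beta-globin, had 6.79, 7.75, 6.01, 6.95 and 6.14 and was lowest in gland 3. The alpha-globins Hba-a1 and Hba-a2 are near-identical copies, so the split between them is uncertain, and both had the same order of glands. Summed over the list, globins had 202, 410, 115, 226 and 124 CPM. The adipocyte score was 0.51 in gland 2 and between -0.17 and -0.09 in the other 4.

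**Figure D4:**
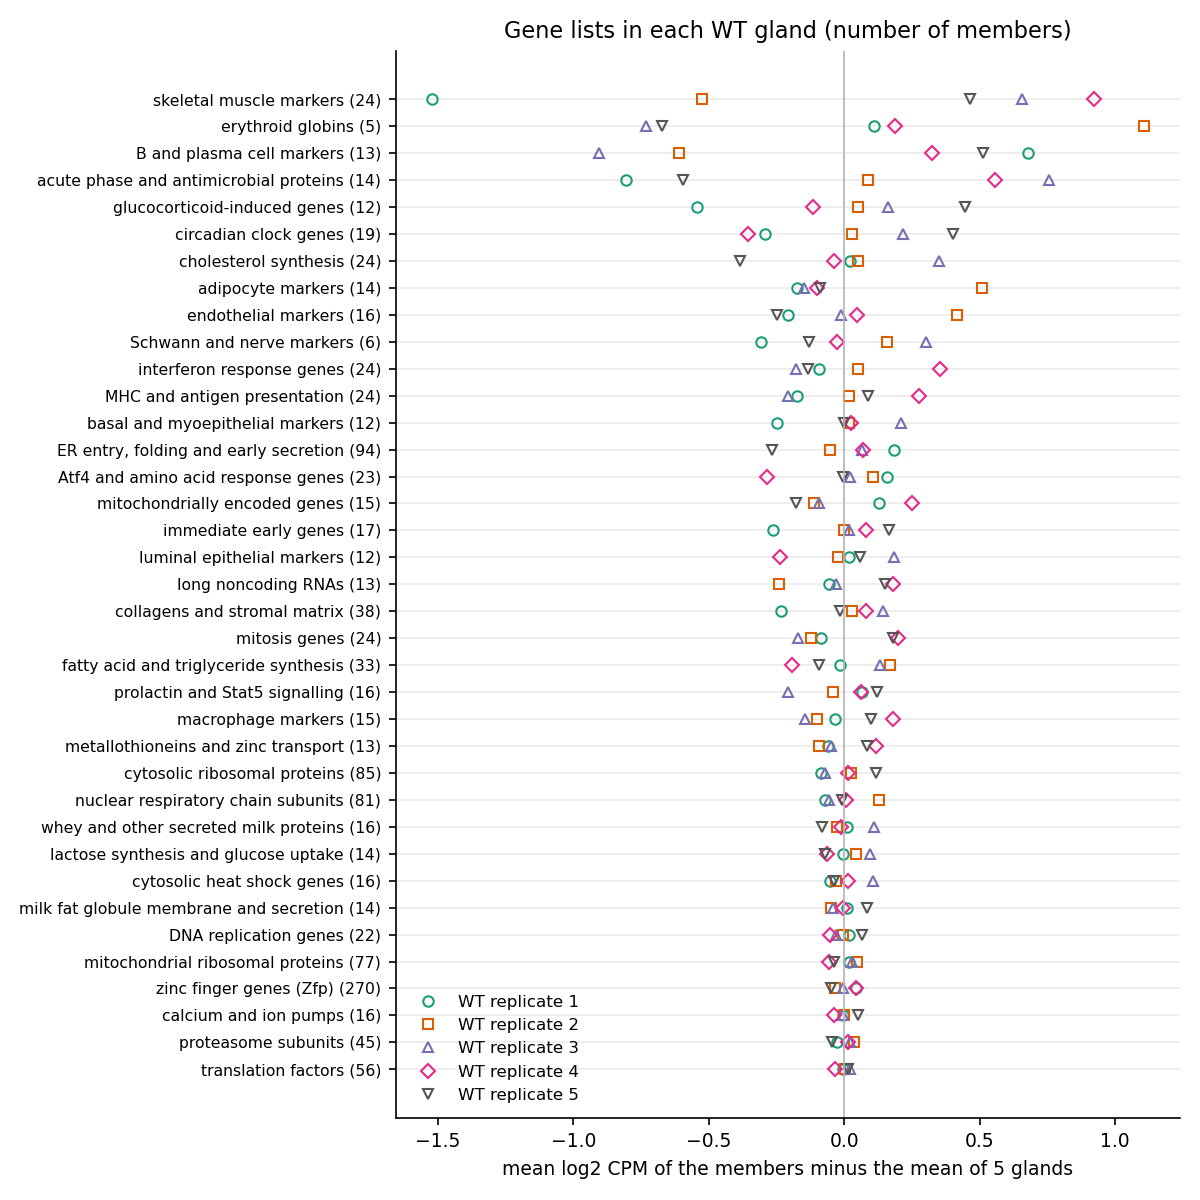
Mean log2 CPM of the members of each gene list minus the mean over the 5 WT glands, with 1 symbol per gland and the number of members in brackets; lists with at least 5 measured members other than the caseins are drawn in order of their range. Muscle, globin, plasma cell and acute phase lists spread by more than 1 log2, and translation factors and proteasome subunits stay within 0.1.

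The epithelium that the tissue label names was present by its markers. Of 14 luminal markers 12 were measured, among them Elf5, the transcription factor of alveolar fate, with 9.30 ± 0.12 log2 CPM, and Epcam with 6.47 ± 0.13. Ehf was more variable, with 7.80, 7.42, 8.08, 7.25 and 7.80. All 12 basal and myoepithelial markers were measured. Myh11, the smooth muscle myosin, had 7.51 ± 0.15 log2 CPM, Acta2 7.40 ± 0.20 and Oxtr, the oxytocin receptor of milk ejection, 5.14 ± 0.13. Of the 12 basal genes, 11 were lowest in gland 1 and 8 highest in gland 3, against 16.8% and 18.4% of all genes. Of the 12 luminal genes, 8 were highest in gland 3 and 8 lowest in gland 4, against 18.4% and 23.4% of all genes. Of the epidermal markers 4 of 14 were measured, and Krt10, which marks suprabasal skin, was at 0.811 ± 0.219 CPM.

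Few T cell markers were measured, and macrophage markers were low. Of 16 T and NK cell markers, the pan-leukocyte gene Ptprc alone was measured, with 2.50, 2.39, 2.37, 3.19 and 3.48 log2 CPM, and Cd3e, Cd3g and Lck were not among the genes analysed here. All 15 macrophage markers were measured, with a sum of 123 ± 16.7 CPM; Csf1r, the receptor that macrophages live on, had 3.55 ± 0.15 log2 CPM. Antibody genes were higher and more variable. Igha, the constant chain of the IgA that is secreted into milk, had 7.00, 5.20, 5.63, 6.29 and 6.34 log2 CPM. Igkc had 6.54, 4.67, 5.25, 5.98 and 6.05, and Jchain, which joins IgA chains, had 5.08, 3.25, 3.80, 4.72 and 4.53. The order of glands was the same for Igha and Igkc: gland 1, then 5, 4, 3 and 2. The variable segment Igkv1-117 had 4.42, 0.39, 1.76, 1.85 and 2.37, and 5 of the 13 genes of the list reached an SD of 1, against 1.15% of all genes. Ighm, the IgM chain, had another order (2.45, 2.42, 2.24, 2.54 and 4.06) and was highest in gland 5, as were Ighg2b and Ighg2c.

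Acute phase and antimicrobial genes split in 2. Of 14 measured, 8 had an SD of at least 1, against 1.15% of all genes. Orm1, an orosomucoid, was at 6.40, 6.68, 8.99, 6.87 and 6.98 log2 CPM, and Lcn2, which binds bacterial siderophores, at 7.31, 7.26, 8.01, 7.32 and 7.18; gland 3 was highest in both. Orm2 (1.66, 2.04, 4.64, 4.62 and 2.21) and the complement gene C4b (2.19, 3.59, 5.18, 5.13 and 3.64) were high in both gland 3 and gland 4. So was Wfdc17, the most variable of those 9780 genes that has an ordinary symbol, with 1.30, 1.34, 4.78, 5.08 and 2.95. Slpi, a protease inhibitor of mucous surfaces, was highest in gland 4 (-0.37, 0.57, 1.75, 3.12 and 0.60). Lbp (7.17 ± 0.14), Cp (6.90 ± 0.12) and C3 (5.55 ± 0.21) had smaller SDs, although 13 of the 14 lay above the median SD of genes of like level. Il1f9, an epithelial cytokine of the interleukin 1 family, had 1.60, 0.38, 3.73, 1.04 and 0.27 and was highest in gland 3.

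Gland 4 also led the antigen presentation and interferon genes. Of 24 genes of antigen presentation, 16 were highest there, and of 24 interferon response genes, 15, against 21.6% of all genes. B2m, the invariant chain of MHC class I, had 6.50, 6.66, 6.06, 7.80 and 6.51 log2 CPM. Gbp2, an interferon-induced GTPase, had 1.93, 1.85, 2.02, 4.41 and 2.03, and its other 4 glands lay within 0.18 of each other. In Bst2 and Rsad2 of the list, gland 4 stood less far apart. Bst2 had 3.76 ± 0.10, and Rsad2 (1.86, 1.88, 0.50, 1.93 and 0.99) was highest in gland 4 by little. H2-K1 (6.69, 6.87, 6.76, 7.22 and 6.94) and H2-D1 (6.56, 6.88, 6.62, 7.08 and 6.89) were highest in gland 4 by less than B2m was.

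Circadian clock genes were among the more variable. Clock and Arntl (Bmal1) drive transcription through the sequence CACGTG, and their targets include the Per genes and the output factors Dbp and Tef. Of 19 measured genes, 5 (Ciart, Dbp, Npas2, Per2 and Per3) had an SD of at least 1, against 1.15% of all genes, and 18 lay above the median SD of genes of like level. Per2 had 0.36, 1.67, 2.79, 0.16 and 2.78 log2 CPM, Dbp 1.79, 2.75, 3.36, 0.57 and 3.51, and Per3 2.72, 3.19, 3.50, 1.40 and 4.24. Glands 1 and 4 were the lowest pair for 7 genes (Bhlhe41, Ciart, Dbp, Nr1d1, Per2, Per3 and Tef), against 11.7% of all genes. They were the highest pair for 2 of the 19 (Arntl and Npas2), a share no higher than the 13.7% of all genes, and the other 10 genes had neither order. Arntl had 2.68, 1.77, 1.33, 2.90 and 1.11, and Npas2, a partner that can stand in for Clock, 1.12, -0.06, 0.53, 2.52 and 0.27. Clock itself had 4.64 ± 0.12. The hours at which the glands were taken are not given in the sources used here. Most of these genes were named after their values were seen.

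Of the 19 clock genes, 16 had a promoter window, and 5 of these (Bhlhe41, Ciart, Cry1, Per1 and Tef; 31.2%) held CACGTG, which reads the same on both strands. It was in 7.15% of all windows and in 11.9% of table genes with a window. Ciart, a repressor of the clock, held it 3 times, beginning 116, 58 and 44 bases before the start, and is shown with CACGTG in capitals as the gene with the most matches.
Ciart, chr3:95882229-95882478, reverse strand: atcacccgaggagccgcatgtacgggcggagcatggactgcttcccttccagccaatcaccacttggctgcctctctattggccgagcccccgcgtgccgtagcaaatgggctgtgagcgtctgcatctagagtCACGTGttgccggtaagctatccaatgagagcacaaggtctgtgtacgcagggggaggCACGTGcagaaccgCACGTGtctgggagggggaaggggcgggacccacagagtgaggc

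Dbp and Per3, which differed as much between glands, had windows without this sequence, and Per2 had no entry.

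**Figure D5:**
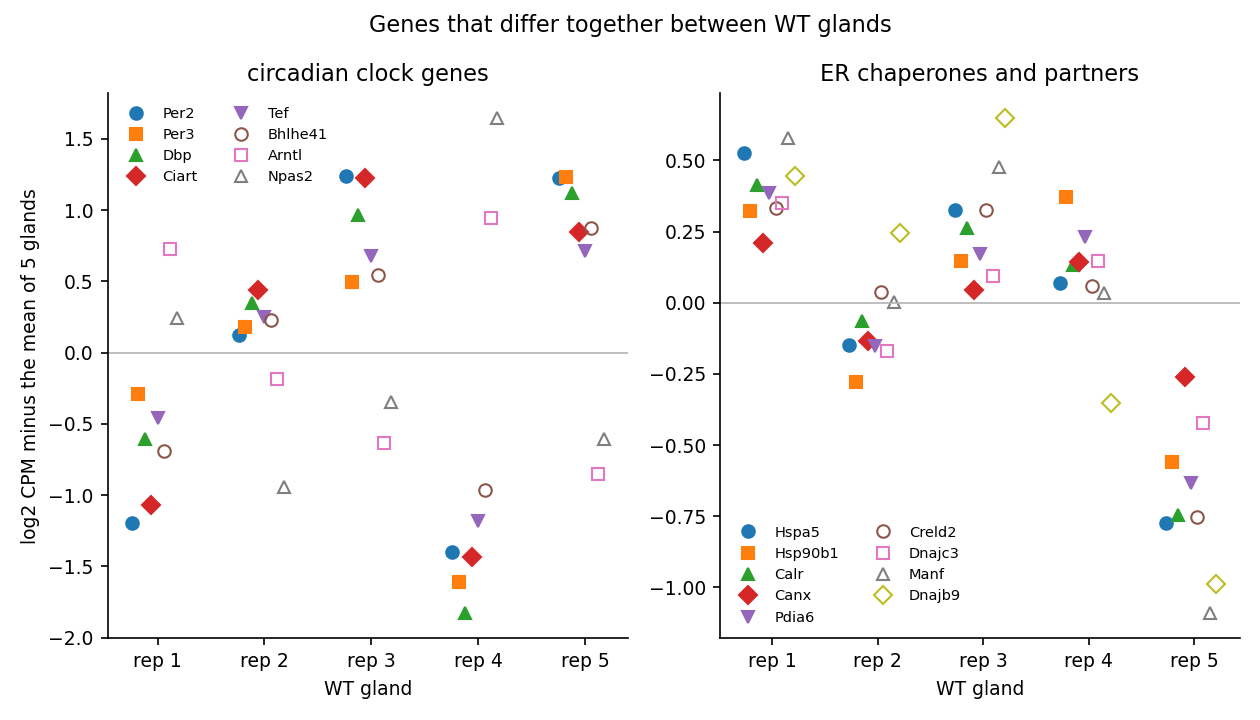
Log2 CPM minus the mean over the 5 WT glands for 8 clock genes (left) and 9 genes of ER folding (right), with 1 symbol per gene and gland. Per2, Per3, Dbp, Ciart, Tef and Bhlhe41 are lowest in glands 1 and 4, where Arntl and Npas2 are highest, and the ER genes drawn are all lowest in gland 5. The genes drawn all follow these orders. Of the 19 clock genes measured, 7 had the first order and 2 the second, and 63 of the 94 ER genes were lowest in gland 5.

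Genes of the ER also differed together, at a smaller size. Hspa5, the chaperone BiP and sensor of unfolded protein, had 8.36, 7.68, 8.16, 7.90 and 7.06 log2 CPM. Manf had 5.18, 4.60, 5.08, 4.64 and 3.51, and the cochaperone Dnajb9 4.50, 4.30, 4.70, 3.70 and 3.07. Gland 5 was the lowest for 63 of the 94 genes of the list and gland 1 the highest for 47, against 21.7% and 19.6% of all genes. The list score was 0.18 in gland 1 and -0.27 in gland 5. Xbp1, the transcription factor of ER expansion, did not follow, with 8.54, 8.43, 8.68, 8.59 and 8.63.

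The ER stress element, CCAAT and CCACG with 9 free bases between them, was searched on both strands; on the other strand it reads CGTGG and ATTGG with the same gap. Of 78 ER genes with a promoter window, 7 (8.97%) held it: Calr, Canx, Creld2, Dnajc3, Hsp90b1, Hspa5 and Pdia6. In all 32851 windows it was found in 0.119%, and in 0.192% of table genes with a window. All 7 were lowest in gland 5, as were most of the list. Calr, the lectin chaperone calreticulin, had 7.70, 7.22, 7.55, 7.42 and 6.54 log2 CPM, and Creld2 had 2.99, 2.69, 2.98, 2.71 and 1.90. Stretches with 15 bases on each side of the element are shown for 6 of them (element in capitals, gene's strand, GRCm38.p6) because they share it in 2 orientations; Hsp90b1 held it 2 times.
Hspa5, chr2:34772010-34772058, forward strand: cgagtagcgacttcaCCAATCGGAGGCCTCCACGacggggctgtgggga
Pdia6, chr12:17266476-17266524, forward strand: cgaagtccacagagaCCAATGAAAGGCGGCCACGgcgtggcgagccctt
Dnajc3, chr14:118937812-118937860, forward strand: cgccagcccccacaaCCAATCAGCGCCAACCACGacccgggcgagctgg
Canx, chr11:50325785-50325833, reverse strand: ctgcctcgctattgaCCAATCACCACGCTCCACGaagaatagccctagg
Calr, chr8:84847060-84847108, reverse strand: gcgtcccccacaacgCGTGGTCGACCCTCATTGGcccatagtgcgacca
Creld2, chr15:88819505-88819553, forward strand: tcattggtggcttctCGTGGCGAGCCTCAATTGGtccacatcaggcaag

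Single genes outside these lists were also far apart between glands. Fkbp5, a chaperone partner of steroid receptors that glucocorticoids induce, had 3.69, 4.44, 5.13, 3.19 and 6.61 log2 CPM, and Zbtb16, a transcription factor that they also induce, had -0.21, 1.60, 1.55, 1.34 and 4.37. Both were highest in gland 5. A list of 12 glucocorticoid-induced genes, which holds both, was added after the values were seen. Its score ran from -0.54 in gland 1 to 0.45 in gland 5, but only Fkbp5 and Zbtb16 were highest in gland 5. By the median over members gland 3 was highest (0.28, against 0.12 in gland 5). Tsc22d3 (3.83, 5.41, 4.79, 3.51 and 4.75) was highest in gland 2 and Sgk1 (5.90, 5.19, 5.46, 6.81 and 6.52) in gland 4. Doc2b, a calcium sensor of vesicle fusion, was highest in gland 5 as well (0.36, 2.21, 0.84, 0.60 and 3.88). Etv5, an ETS transcription factor, had 3.52, 2.21, 1.30, 4.07 and 1.33, and Ctgf, a matrix-associated growth factor gene, 1.74, 2.78, 4.07, 0.96 and 1.36. Glands 1 and 4 were the highest for Etv5, and gland 3 for Ctgf.

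Feedback inhibitors of cytokine signalling had distinct values in each gland, unlike the 8 highest milk protein genes. Cish, a feedback inhibitor induced by Stat5, had 4.73, 4.17, 4.54, 5.66 and 5.33 log2 CPM, and Socs2 had 3.89, 3.24, 2.78, 4.47 and 3.81. Gland 4 was highest for both. Over the 16 measured genes of prolactin and Stat5 signalling, gland 4 was the highest for 6 and the lowest for 7, against 21.6% and 23.4% of all genes, and the list score was highest in gland 5 (0.12). Among amino acid response genes, Chac1, which degrades glutathione, had 1.00 log2 CPM in gland 4 and between 2.82 and 3.41 in the others, and Slc7a5, the large neutral amino acid transporter, had 7.32, 7.66, 7.59, 6.46 and 7.99. Both were lowest in gland 4, as were 14 of the 23 genes of the list (23.4% of all genes), while Atf4 itself had 6.80 ± 0.11.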

How the data were processed

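PolyA RNA of 12 lactating mammary glands, 5 of them wild-type (WT), was sequenced with 1 library per mouse, and the 5 WT columns were used here. The authors deposited log2 CPM values; the submitters' processing notes name limma 3.34.5, RSEM 1.3.0, STAR 2.5.2b, Trimmomatic 0.33 and bcl2fastq 2.17, with the builds mm10 and hg19 named without a role. That the deposited log2 values had been quantile-normalized was read from the values. The authors' deposited table also holds group means, fold changes, a score (moderated t) and p-values for KO against WT; none of these was used. No source used here gives the gene filter applied before deposit. Without read counts in use, no count model, counting interval or test against counting noise was used, and no groups were compared.

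From the log2 values, CPM, ranks, shares, means and SDs over the 5 glands were computed with Python 3.11.15, numpy 2.4.6 and pandas 2.3.3, and figures were drawn with matplotlib 3.10.9. The SD procedure was tested on simulated data. Genes were joined to GENCODE M21 (mm10) by symbol (11489) or RefSeq synonym (290), which matched 11779 of 11834 (99.5%). The per-length scale uses the longest transcript of the gene's own type. Promoter windows come from RefSeq, GRCm38.p6, and copies of genes were found with blastn against GENCODE M21 transcripts. Depth is a rough estimate, 1 over the median spacing of values that 8 or more genes hold in common (0.5 to 8 CPM), because normalization alters that spacing.

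Each gene was put in the first of 39 classes that holds it, so class and list counts can differ by members that an earlier class took. Lists were described by counts and medians beside those over all genes. Named genes were the 30 highest by CPM and 15 per length, the 20 of largest and 10 of smallest SD above 0, of each list the 3 highest and the 2 of largest SD, the gene of largest SD in each of 10 level groups, and Btn1a1. The rules by SD over all genes and in lists required a mean of at least 1 log2 CPM, the former also an ordinary symbol and, for the smallest, 5 distinct values. Other genes were named after their values were seen. The members, lists and rules were chosen with earlier results of these data known, and the list of glucocorticoid-induced genes after the values were seen. A list of RT-PCR reference genes is not reported here. Alternatives were leaving out each library, day 10 libraries only, other length scales, filters, measures of spread and median centring.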

Additional observations from a re-analysis of the deposited data

Results flagged for a closer look

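In 19 of 286 values tested (6.64%), 1 of the 5 WT glands stood apart from the other 4 by Dixon's ratio (critical value 0.71). For independent values of a normal distribution, about 1 in 20 would. Many of the genes tested were picked by their SD, and class shares and list scores hold some of the same genes. The rate of 1 in 20 is therefore no chance level for the 19. Gland 3 stood apart for mt-Co1 (12.53 log2 CPM, the others all 12.91) and Btn1a1 (11.23, the others all 11.03), and gland 4 for mt-Nd1 (11.23, the others 10.75 to 10.86). These 3 genes are among the 30 highest, where quantile normalization leaves few values to take. Gland 3 was also apart for Orm1 (8.99, the others 6.40 to 6.98), Lcn2 (8.01, the others 7.18 to 7.32), the proliferation antigen Mki67 (5.12, the others 5.70 to 5.92) and the lysosomal membrane protein Laptm4a (5.97, the others 5.91 to 5.93).

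Gland 4 stood apart for the interferon-induced Gbp2 (4.41 log2 CPM, the others 1.85 to 2.03), Chac1 (1.00, the others 2.82 to 3.41) and the mitochondrial ribosomal protein Mrpl19 (2.50, the others 3.12 to 3.32). It also had the highest share of interferon response genes, 0.0160% of CPM against 0.0110% to 0.0125%. Gland 2 stood apart for Rab18 (8.06, the others 9.04 to 9.07), Ndufb7 (4.94, the others 4.39 to 4.52) and Zfp106 (6.67, the others 6.84 to 6.87). The adipocyte markers of gland 2 held 0.104% of CPM against 0.0657% to 0.0763%, with a list score of 0.51 against -0.17 to -0.09. Acute phase and antimicrobial genes held 0.118% of CPM in gland 3 against 0.0576% to 0.0712%.

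In gland 2, Gm12191 and 2210418O10Rik had -4.01 log2 CPM, the lowest value of that library, while the other glands held 3.87 to 4.44 for the first and at most 2.09 for the second. Gm12191 (chr11:49678710-49679057, mm10) is a processed copy 99.7% identical to Rpl30 over 348 bases; Rpl30 had 86.3 CPM, and the sum of both had an SD of 0.14 log2 where Gm12191 alone had 3.70.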

How the results depend on the processing

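The share of the 10 highest genes was 72.0% of CPM; it was 82.4% per kilobase of the longest transcript, 68.6% per kilobase of all annotated exons (an alternative chosen after seeing the data) and 72.2% over genes of mean 1 log2 CPM or more, and 72.0% to 72.1% without 1 library each. Quantile normalization gives each library nearly the same set of values, so leaving out 1 library could hardly change the share of the 10 highest genes. The 1210 genes that hold 90% of CPM became 84.8 and 458.2 on the 2 length scales as a mean over glands. Caseins held 55.2% of CPM, 53.9% per longest transcript and 32.1% per annotated exon length. On the length scales 32 and 35 of the 39 class shares moved by more than the spread between glands. None of the 195 shares without 1 library did. That outcome was fixed in advance, because leaving out 1 of 5 glands always shifts a mean by less than their SD. The 136 genes with an SD of at least 1 became 60 over genes of mean 1 log2 CPM or more, 87 by the median absolute deviation, and 120 (without gland 1) to 155 (without gland 5), of which 100 to 124 were shared with the 136. The median SD lay between 0.153 and 0.189 under all its alternatives. Of the 20 genes of largest SD, 12 were shared without gland 1, 11 by the median absolute deviation and 13 in day 10 libraries. For 27 of 37 lists the highest gland was the same by the median over members. No paired analysis was possible because only the WT group was analysed and no groups were compared. The estimated depth and the quantile normalization limit what low and very high genes can show, and lactation day and mouse cannot be told apart.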

Other observations

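Ion and zinc transport genes were among the higher genes. Slc34a2, a phosphate carrier, had 10.78 ± 0.17 log2 CPM (SD, n = 5), Atp2b2, the plasma membrane pump that moves calcium into milk, 8.65 ± 0.23, and the Golgi pump Atp2c2 7.88 ± 0.11. Its paralog Atp2c1 varied more (7.26, 6.72, 6.46, 7.44 and 6.70 in glands 1 to 5) and was highest in glands 1 and 4. The zinc importer Slc39a8 had 9.26, 8.93, 8.57, 9.07 and 9.10 log2 CPM, the exporter Slc30a4 6.50 ± 0.15, and the zinc-binding Mt1 2.50, 3.04, 3.19, 3.80 and 3.78. Cel, a lipase secreted into milk, had 10.48 ± 0.09, and the oxidase gene Lao1 had 12.23 ± 0.20 and stood at rank 11 by reads.

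Mitosis genes were low apart from Mki67. Mki67 had 52.3 ± 10.4 CPM, while Top2a (1.87 ± 0.48) and Hmmr (0.998 ± 0.245), the mitosis genes of next highest mean, were below 2 CPM; on the per-length scale Mki67 was at 6.47 and Top2a at 0.447. Pcna, the sliding clamp of DNA replication, had 16.6 ± 1.33 CPM. Among noncoding RNAs, Malat1 had 7.97, 7.62, 7.75, 8.31 and 8.43 log2 CPM and Neat1 7.68, 7.53, 7.12, 8.18 and 7.76. H19 had 1.10, 1.15, 2.86, 3.11 and 2.65, low in glands 1 and 2, which were also the lowest pair for Myh4 and Pvalb. The share of all genes with this lowest pair was not counted, and a link between these genes was not tested. The immediate early genes Jun (1.19, 1.51, 1.96, 0.87 and 2.19) and Ier2 (1.08, 1.93, 1.19, 1.55 and 2.49) were highest in gland 5. Of the 17 immediate early genes measured, 6 were highest in gland 5 and 5 in gland 3, against 21.5% and 18.4% of all genes.

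Several of the largest SDs belong to genes with near-identical copies. Gm12671 (chr4:91851668-91852669, mm10), identical to Gapdh over 1002 bases, had 3.06, 2.87, -5.49, 2.61 and -4.75 log2 CPM, while the sum of both had an SD of 0.17. Gm26809 had 7.14 log2 CPM in gland 2 and between 1.29 and 1.57 in the others, and Gm12840, which shares a stretch of 513 bases with it at 97.1% identity, had 5.22 in gland 2 and between -2.61 and -0.40 in the others. In this pair the sum was as variable as its members, with an SD of 2.61. Gm26880 (3.40, 3.50, 6.50, 3.38 and 5.90) and AI506816 (0.86, 1.36, 4.11, 0.30 and 3.06), alike at 89.5% over 888 bases, were both highest in glands 3 and 5.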
